A study of Mus musculus with 4 samples.

Results

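The genes described here encode the nuclear part of the oxidative phosphorylation machinery of mouse hepatocytes, measured by RNA-seq in cells of the AML12 line grown as a flat layer (2D) or inside a gel (3D). Members were the protein-coding genes whose symbols match the naming patterns of complex I (Nduf), complex II (Sdh), complex III (Uqcr), complex IV (Cox4 to Cox8) and complex V (Atp5). This gave 91 of the 31828 genes in the table, of which 38 were assigned to complex I, 4 to complex II, 8 to complex III, 16 to complex IV and 17 to complex V. The remaining 8 were Ndufaf genes, which the pattern also takes in and which encode assembly factors of complex I rather than subunits. Some subunits carry other names and were followed separately. Ndufa4 was counted by its name with complex I, although its protein is now known as a subunit of complex IV. Atp5s was counted by its name with complex V, although RefSeq now lists it as Dmac2l.

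AML12 (alpha mouse liver 12) is an immortalised hepatocyte line. Both cultures were kept in a DMEM and Ham's F12 mix with fetal calf serum, insulin, transferrin, selenite and dexamethasone, and were either replated on dishes or embedded in Matrigel, a basement membrane gel. Both received 1 mM hydroxyurea, which stalls DNA replication, for 24 h in 2D and 36 h in 3D, so the culture and the length of the drug treatment cannot be told apart. There were 2 libraries of polyadenylated RNA for each culture, 4 in all, and since the labels do not say that they came from separate cultures, the p-values may measure technical spread only. Values are TPM, a share of all transcripts corrected for length, so levels can be compared between genes, and read depth is unknown.

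The respiratory chain lies in the inner mitochondrial membrane. Complex I takes electrons from NADH and complex II from succinate, complex III passes them to cytochrome c, and complex IV hands them to oxygen. Complexes I, III and IV pump protons, and complex V, the ATP synthase, uses the returning protons to make ATP. Complex II is encoded in the nucleus alone, whereas the others also hold subunits made from mitochondrial DNA. Hepatocytes are rich in mitochondria and use their ATP for, among other things, gluconeogenesis and urea synthesis.

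Many nuclear genes of this machinery carry short promoter words read by the factors NRF1, GABP of the ETS family, YY1 and SP1. RefSeq promoters (GRCm38.p6, 250 bases before to 50 after the start) were matched to 73 of the 86 members tested below. The NRF1 word GCGCATG, searched on both strands, was in 15 of the 73 (20.5%), against 7.12% of the promoters of 10075 tested genes and 3.91% of all 32851 promoters in the table. The YY1 word AAGATGG was in 15.1% of members and 7.6% of tested genes, and the ETS word CCGGAAG in 23.3% and 19.1%. The SP1 word GGGCGG went the other way, with 45.2% of members and 63.8% of tested genes. In 69 promoters of mitochondrial ribosomal protein genes, NRF1 was in 11.6%, YY1 in 18.8% and ETS in 34.8%. The YY1 and ETS shares were thus higher there than in members. In 16 promoters of citric acid cycle and pyruvate dehydrogenase genes they were 6.25% and 18.8%, and NRF1 was in 0%. An NRF1 match lay ahead of every annotated start in 7 members. The following stretches of 60 bases show it, in capitals, for 1 member of each complex, and of the Ndufaf genes, that had one. Among members with such a match, the one with the largest log2 fold change in either direction was shown. Ndufb6 is at chr4:40279465-40279524 on the minus strand, Ndufaf4 at chr4:24897944-24898003 on the plus strand, Cox5b at chr1:36691389-36691448 on the plus strand and Atp5l at chr9:44920933-44920992 on the minus strand. In Atp5l the capitals are the reverse complement of the word.
Ndufb6: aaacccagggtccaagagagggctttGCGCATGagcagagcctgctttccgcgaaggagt
Ndufaf4: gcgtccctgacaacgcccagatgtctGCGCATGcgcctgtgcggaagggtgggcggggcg
Cox5b: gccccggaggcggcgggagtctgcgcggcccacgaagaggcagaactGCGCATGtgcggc
Atp5l: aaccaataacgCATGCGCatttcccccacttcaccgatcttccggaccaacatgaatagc

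The NRF1 word was found among members with either response and among those with none. It was in 6 of 35 members that were lower in 3D (17.1%), in 8 of 32 that were not called (25%) and in 1 of 6 that were higher. Of the 4 genes printed, which were chosen by the size of their log2 fold change, Ndufb6 and Cox5b had lower TPM in 3D. Ndufaf4 and Atp5l were not called. A match is a description of letters and not of a bound site.

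Transcripts of the nuclear-encoded subunits took a smaller share of the transcriptome in 3D-cultured cells. Summed over all 91 members, TPM was 20534.9 and 19965.7 in 2D-cultured cells and 17760.6 and 17817.1 in 3D-cultured cells, a ratio of 0.878. This sum was 2.05% and 2.00% of all TPM in 2D and 1.78% in each 3D library. Since TPM are shares of bulk RNA, fewer cells with a transcript, less of it per cell and more RNA from other genes cannot be told apart.

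The difference was seen in the sums of all 5 complexes, with both 3D libraries below both 2D libraries in each. Complex V members summed to 5239.9 and 5304.2 TPM in 2D and to 4463.5 and 4336.1 TPM in 3D, a ratio of 0.835. Complex IV subunits gave 6166.9 and 6047.7 TPM in 2D and 5255.7 and 5444.0 TPM in 3D, a ratio of 0.876. The ratios were 0.889 for complex III, 0.909 for complex II and 0.913 for complex I. The plot of summed TPM shows that the difference between culture means was larger than that between replicates in every complex, and that complex II, with 4 genes, had by far the smallest sum. The sums were not tested, because with 2 libraries on each side the smallest p of an exact permutation test is 0.333.

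**Figure D1:**
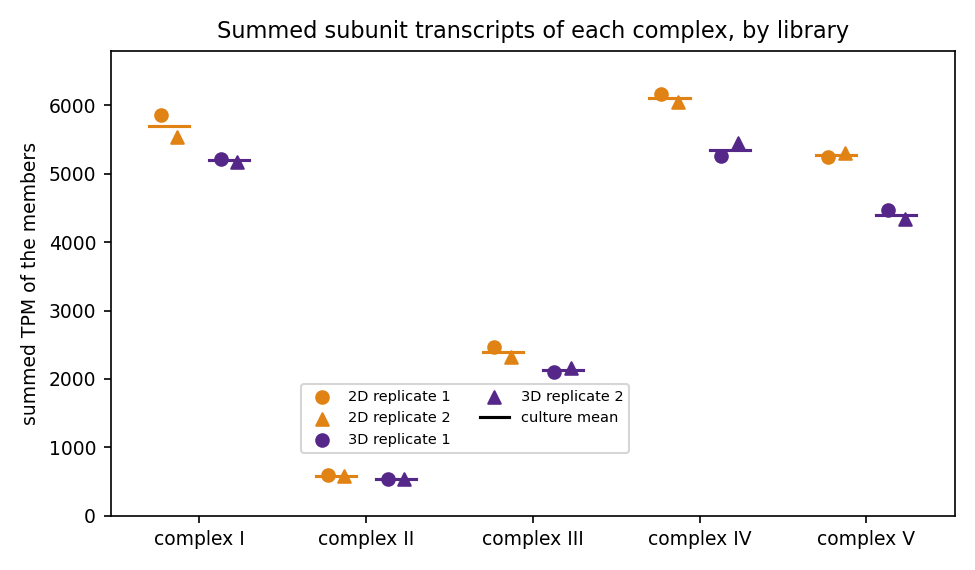
Summed TPM of the members of each complex (vertical axis, linear from 0) in the 2 2D libraries (orange) and the 2 3D libraries (purple), with circles for replicate 1, triangles for replicate 2 and lines for the culture means. In complex V the 3D libraries stand at 4463.5 and 4336.1 TPM, below 5239.9 and 5304.2 TPM in 2D, and the other 4 complexes show the same order.

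Gene by gene, 86 members had a mean of at least 1 TPM and were tested with limma on log2(TPM + 1), a scale that understates the change of low genes. A gene was called when its p, adjusted by Benjamini-Hochberg over all 14116 genes tested, was under 0.05. Counts at an unadjusted p under 0.05 are also given below for some groups. The share of all genes at that threshold is not given here, so these counts cannot be set against genes at large. In 3D, 38 members were lower (44.2%) and 9 were higher (10.5%), and 39 were not called. Among all genes tested, 27.1% were called lower and 23.4% higher, 50.5% in all, so the 2 cultures differed widely and members leaned to the lower side more often than genes at large. Their median log2 fold change of 3D over 2D was -0.16, against -0.04 over all genes tested, and 65 of 86 members (75.6%) had a negative value, against 53.2% of all genes. Both 3D libraries were below both 2D libraries in 57 members, and above them in 15, whereas 41.6% and 35.9% of all genes were separated in these ways. The changes were small in size, from -0.84 to 0.75. Of the 47 calls, 22 held under every one of the 15 processing alternatives run, 20 of them lower and 2 higher, and none changed sign.

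Members are more abundant than most genes, with a median of 166.0 TPM against 22.2, and have shorter transcripts, with a median of 622 bases against 1235. Across the 86 members the log2 fold change had a Spearman rho of 0.159 with transcript length and -0.15 with mean TPM. These are descriptions across genes that share the same libraries. With length and GC content of the transcript fitted across all genes, 41 members were called, of which 39 were among the 47 above, and the median of complex III moved from -0.13 to -0.07. The medians of complexes I, IV and V became -0.10, -0.19 and -0.17.

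**Figure D2:**
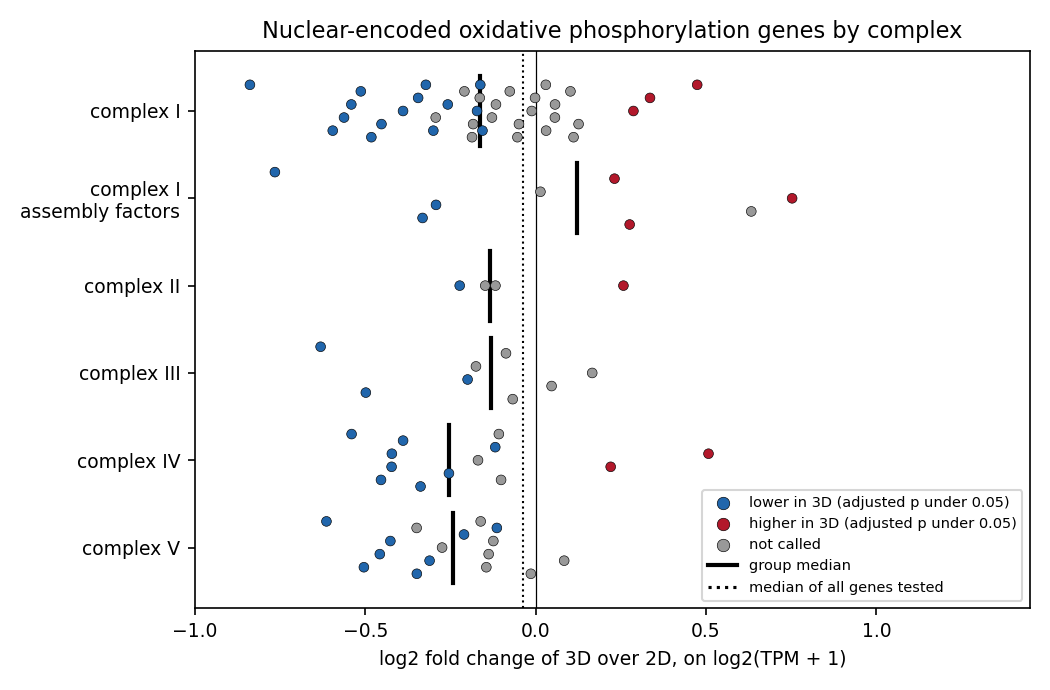
Log2 fold change of 3D over 2D on log2(TPM + 1) (horizontal axis) for the 86 tested members, by complex, with blue for members lower and red for members higher in 3D at an adjusted p under 0.05 (limma) and grey for the rest. Bars are group medians, and complexes IV and V have the lowest, -0.25 and -0.24, left of the dotted median of all genes at -0.04.

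Complex I, the NADH dehydrogenase, had 15 of 37 tested members lower (40.5%) and 3 higher (8.11%) in 3D, against 27.1% and 23.4% of all genes tested. The median log2 fold change was -0.16. Its 7 core subunits carry the flavin and the iron-sulphur clusters and are found in bacteria too. Of these, 1 was lower (14.3%) and 1 higher (14.3%), both shares below those of all genes, with a median of 0.03. The 30 accessory subunits, a shell added in eukaryotes, had 14 lower (46.7%) and 2 higher (6.67%) and a median of -0.18. The difference between core and accessory subunits was not tested.

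Ndufb2, an accessory subunit of the membrane arm (chr6:39592574-39603382), had the largest decrease of any member. Its TPM was 63.4 and 62.8 in 2D and 35.0 and 34.7 in 3D, so the cultures lay far apart and replicates nearly coincided. The log2 fold change was -0.84 (SE 0.048, adjusted p = 0.000561, limma). Ndufa3, also of the accessory shell (chr7:3617373-3620327), had 124.6 and 126.9 TPM in 2D and 80.2 and 85.6 TPM in 3D. It fell by 0.60 on the log2 scale (SE 0.050, adjusted p = 0.00135, limma). Ndufa12, near the matrix arm, stood at 165.2 and 138.1 TPM in 2D and at 116.1 and 89.6 TPM in 3D, with a wider spread between replicates. Its log2 fold change was -0.56 (SE 0.153, adjusted p = 0.0358, limma). The Ndufa12 call was lost without either 2D library or without 3D replicate 2, with limma adjusted p of 0.208, 0.0987 and 0.101.

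The Ndufb genes, accessory subunits of the distal membrane arm, had 6 of 10 lower (60%) and none higher (limma), against 27.1% and 23.4% of all genes tested. At an unadjusted p under 0.05 the counts were 7 and 0. Ndufb6, whose promoter is shown above, had 212.0 and 196.8 TPM in 2D and 134.9 and 145.4 TPM in 3D, a log2 fold change of -0.54 (adjusted p = 0.00291, limma). Ndufb7 was lower by a log2 fold change of -0.48 and Ndufb4 by -0.35, while Ndufb3 and Ndufb11 were lower by smaller amounts, -0.17 and -0.16, and were no longer called without 2D replicate 1 or either 3D library (adjusted p from 0.0822 to 0.192, limma). Ndufb9, the complex I member with the highest mean TPM, did not separate the cultures, with 403.4 and 371.4 TPM in 2D and 382.7 and 390.5 TPM in 3D (adjusted p = 0.979, limma).

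Among the remaining accessory subunits, Ndufa5 of the matrix arm was lower in 3D by a log2 fold change of -0.51, with 59.3 and 49.0 TPM in 2D and 35.9 and 39.1 TPM in 3D, and lost the call without 3D replicate 1 (adjusted p = 0.081, limma). Ndufs5 (-0.32), Ndufs4 (-0.30), Ndufs6 (-0.26) and Ndufa1 (-0.16) were also called lower. These decreases were less firm. Without 3D replicate 1 the adjusted p was 0.126, 0.118, 0.0893 and 0.144 in that order (limma), and each lost the call without at least 2 other libraries as well.

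The 3 complex I subunits that were higher in 3D were Ndufa6, Ndufa7 and Ndufs3. Ndufa6, an accessory subunit of the LYR motif family that binds the acyl carrier protein (chr15:82350140-82354322), had 184.7 and 179.6 TPM in 2D and 264.0 and 243.1 TPM in 3D. It rose by a log2 fold change of 0.47 (SE 0.054, adjusted p = 0.00291, limma), exceeded among subunits only by Cox6a2. Ndufa7 had 289.5 and 248.5 TPM in 2D and 340.7 and 336.8 TPM in 3D, a log2 fold change of 0.34 (adjusted p = 0.0244, limma). Ndufs3, a core subunit of the matrix arm, had 90.4 and 85.7 TPM in 2D and 113.0 and 102.5 TPM in 3D, a log2 fold change of 0.29 (adjusted p = 0.0222, limma). The last 2 calls were not kept under every alternative. Both were lost without 3D replicate 1, that of Ndufa7 also without 3D replicate 2, and that of Ndufs3 also without 2D replicate 2. Each of these fits leaves 1 library in a culture, so a lost call does not show that the difference came from a single library.

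Among the core subunits the decrease was in Ndufs8, which holds iron-sulphur clusters in the arm leading to ubiquinone. Its TPM was 204.0 and 187.9 in 2D and 149.0 and 149.5 in 3D (log2 fold change -0.39, adjusted p = 0.00472, limma). The flavoprotein Ndufv1 (-0.13), its partner Ndufv2 (-0.05), the large subunit Ndufs1 (0.03) and Ndufs7 (0.06) were not called. Ndufab1, the mitochondrial acyl carrier protein, varied most between replicates among complex I subunits, with 164.2 and 215.8 TPM in 2D and 181.1 and 130.0 TPM in 3D, and its cultures overlapped.

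The 8 Ndufaf genes, whose products help build complex I, had 3 lower (37.5%) and 3 higher (37.5%). Of all genes tested, 27.1% were lower and 23.4% higher, so genes at large were also called in both directions. The median log2 fold change of the 8 was 0.12. Ndufaf2, which stays bound to a late assembly intermediate (chr13:108002715-108158623), had 41.1 and 36.4 TPM in 2D and 22.2 and 22.5 TPM in 3D, a log2 fold change of -0.77 (SE 0.078, adjusted p = 0.00221, limma). Ndufaf6 (chr4:11051045-11076205) went the other way, with 9.23 and 9.04 TPM in 2D and 17.0 and 15.2 TPM in 3D, a log2 fold change of 0.75 (SE 0.085, adjusted p = 0.00283, limma). These are the extremes of the assembly factors in either direction. Smaller differences were found for Ndufaf8 (-0.33) and Ndufaf5 (-0.29), lower in 3D, and for Ndufaf7 (0.28) and Ndufaf3 (0.23), higher in 3D, and none of these 4 calls was firm. Without 2D replicate 1 or 3D replicate 1 the limma adjusted p was 0.0678 and 0.0938 for Ndufaf8. For Ndufaf5 it was 0.0577 without 2D replicate 1 and 0.0715 and 0.0839 without 3D replicates 1 and 2. Ndufaf7 and Ndufaf3 lost the call without any 1 of the 4 libraries (0.0675 to 0.209). Ndufaf4 stood at 5.43 and 4.46 TPM in 2D and at 12.1 and 5.45 TPM in 3D, so that 3D replicate 1 alone was high, and it was not called (adjusted p = 0.199, limma). Without 3D replicate 2, its log2 fold change was 1.14 (adjusted p = 0.0159, limma). Ndufaf1 was not called (log2 fold change 0.01).

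Complex II, succinate dehydrogenase, also belongs to the citric acid cycle. Sdhd, one of its membrane anchors, had 171.8 and 167.6 TPM in 2D and 146.6 and 143.8 TPM in 3D, and fell by 0.22 on the log2 scale (SE 0.040, adjusted p = 0.0103, limma). The other anchor, Sdhc, had 32.6 and 29.0 TPM in 2D and 37.3 and 36.7 TPM in 3D, a log2 fold change of 0.26 (SE 0.074, adjusted p = 0.0422, limma). The pair that anchors the enzyme was thus called in opposite directions. Neither call was kept under every alternative. That of Sdhd was lost without either 3D library, and that of Sdhc without 2D replicate 2 or either 3D library. Each of these fits leaves 1 library in a culture, so a lost call does not show that the difference came from a single library. The call of Sdhc was also lost under a replicate block (adjusted p = 0.056, limma). The iron-sulphur subunit Sdhb, the most abundant of the complex, had 240.3 and 222.9 TPM in 2D and 208.6 and 208.9 TPM in 3D (log2 fold change -0.15, adjusted p = 0.0634, limma), and it was called without 2D replicate 2 (0.0257). The flavoprotein Sdha was not called either (-0.12, adjusted p = 0.0755, limma).

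Complex III, the cytochrome bc1 complex, had 3 of 8 members lower (37.5%) and none higher (limma), against 27.1% and 23.4% of all genes tested. At an unadjusted p under 0.05 the counts were 4 and 0. The median log2 fold change was -0.13. Uqcrb, a small subunit near the ubiquinone site (chr13:66900617-66905378), had 257.8 and 258.7 TPM in 2D and 169.0 and 163.8 TPM in 3D. It fell by 0.63 on the log2 scale (SE 0.038, adjusted p = 0.000628, limma). The core protein Uqcrc1 (chr9:108936633-108949623) had 339.3 and 326.8 TPM in 2D and 241.3 and 229.7 TPM in 3D, a log2 fold change of -0.50 (SE 0.045, adjusted p = 0.00156, limma). Its partner Uqcrc2 was not called, with 122.7 and 122.2 TPM in 2D and 113.5 and 120.3 TPM in 3D (log2 fold change -0.07). The Rieske iron-sulphur protein Uqcrfs1 had a log2 fold change of -0.20 (adjusted p = 0.0452, limma), and this call was lost without any 1 of the 4 libraries, with limma adjusted p from 0.0595 to 0.196. The most abundant member, Uqcr10, had 687.0 and 614.4 TPM in 2D and 562.5 and 588.3 TPM in 3D (adjusted p = 0.0812 by limma, and 0.0207 without 2D replicate 2), and Uqcrh, Uqcrq and Uqcr11 were not called, with log2 fold changes of -0.09, 0.05 and 0.17.

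Complex IV, cytochrome c oxidase, had 8 of 13 tested members lower (61.5%) and 2 higher (15.4%), against 27.1% and 23.4% of all genes tested. Its median log2 fold change was -0.25. Cox7a2 (chr9:79755361-79759878) had 269.8 and 253.6 TPM in 2D and 180.2 and 178.9 TPM in 3D, a log2 fold change of -0.54 (SE 0.046, adjusted p = 0.00134, limma). Cox6b1, which faces the intermembrane space (chr7:30616861-30626151), had 545.8 and 538.2 TPM in 2D and 391.0 and 399.8 TPM in 3D, a log2 fold change of -0.45 (SE 0.034, adjusted p = 0.000999, limma). Cox5b, a zinc-binding subunit with the promoter shown above, had 286.4 and 269.1 TPM in 2D and 206.7 and 206.9 TPM in 3D, a log2 fold change of -0.42 (SE 0.045, adjusted p = 0.00248, limma). In each of these 3 genes the 3D libraries lay close together and well below both 2D libraries. Smaller decreases were called for Cox7b (-0.39), Cox7c (-0.34), Cox6c (-0.25) and Cox6a1 (-0.12). Of these, Cox6c lost the call without 3D replicate 2 (adjusted p = 0.0601, limma). Cox7a1 had under 10 TPM in every library and a log2 fold change of -0.42. The calls of Cox6a1 and Cox7a1 were both lost without 2D replicate 1 or either 3D library, with limma adjusted p from 0.0994 to 0.249. Ndufa4, placed in complex I by its name but known as a subunit of complex IV, was lower as well, with 372.4 and 337.4 TPM in 2D and 256.5 and 261.1 TPM in 3D (log2 fold change -0.45, adjusted p = 0.00401, limma).

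The most abundant transcript of all members, Cox8a, was not called, with 2139.3 and 2052.6 TPM in 2D and 1915.6 and 1990.9 TPM in 3D (log2 fold change -0.10, adjusted p = 0.088, limma). Cox4i1, which encodes subunit IV, had 553 to 632 TPM in 2D and 475 to 581 TPM in 3D, overlapped between cultures and was not called (adjusted p = 0.289, limma). Cox5a was not called (-0.11).

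Complex V had 8 of 16 tested members lower (50%) and none higher (limma), against 27.1% and 23.4% of all genes tested. At an unadjusted p under 0.05 the counts were 10 and 0. A negative log2 fold change was found in 15 of the 16 (93.8%), against 53.2% of all genes. In the catalytic F1 head, Atp5b, the beta subunit that makes ATP (chr10:128083273-128090391), had 1183.2 and 1165.3 TPM in 2D and 926.0 and 917.7 TPM in 3D. It fell by 0.35 on the log2 scale (SE 0.031, adjusted p = 0.00149, limma). Atp5d, the delta subunit of the central stalk (chr10:80138632-80145818), had 420.2 and 426.3 TPM in 2D and 300.3 and 315.8 TPM in 3D, a log2 fold change of -0.46 (SE 0.041, adjusted p = 0.00157, limma). The alpha subunit Atp5a1, which alternates with beta in the ring of the head, was only just called (log2 fold change -0.11, adjusted p = 0.0495, limma), and not without any 1 of the 4 libraries (0.056 to 0.276). Atp5c1 (-0.14) and Atp5e (-0.12), the gamma and epsilon subunits of the stalk, were not called. Thus all 5 genes of the head had negative values, of which 3 passed the test.

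In the stalks and membrane part, Atp5o, which joins the head to the peripheral stalk (chr16:91925214-91931687), had the largest decrease of the complex. Its TPM was 229.4 and 259.4 in 2D and 171.6 and 147.4 in 3D, a log2 fold change of -0.61 (SE 0.099, adjusted p = 0.00768, limma). Atp5k (-0.43) and Atp5f1 (-0.21) were lower too. The call of Atp5k was lost without either replicate 2 (adjusted p = 0.0857 and 0.106, limma), and that of Atp5f1 without 2D replicate 2 or either 3D library (0.0568 to 0.143). Atp5j (-0.35) and Atp5h (-0.27) were not called, with limma adjusted p of 0.0771 and 0.0875. Both had a wide spread between replicates, in Atp5j from 143.8 to 183.8 TPM within 2D.

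**Figure D3:**
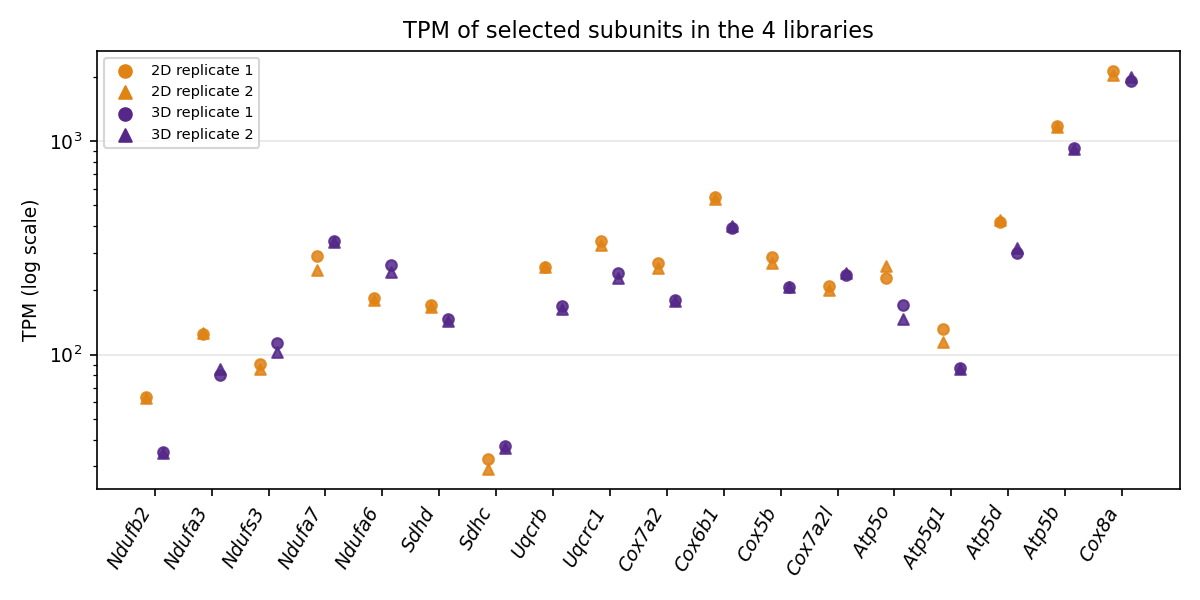
TPM on a log axis of 18 members in the 4 libraries, with 2D in orange, 3D in purple, circles for replicate 1 and triangles for replicate 2. Members are ordered by complex, except that Cox8a of complex IV stands last, after the complex V members. The 3D points lie below the 2D points for most genes, from Ndufb2 at 35.0 and 34.7 TPM to Atp5b at 926.0 and 917.7 TPM, and above them for Ndufs3, Ndufa7, Ndufa6, Sdhc and Cox7a2l.

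For the Cox7a subunit and the c subunit, several related genes were expressed side by side, and their shares are given for each library. The Cox7a genes were Cox7a2, the form of most tissues, Cox7a1, the form of heart and muscle, and Cox7a2l, whose product joins complexes III and IV into supercomplexes. Cox7a2 made up 55.4% and 55.0% of their TPM in 2D and 42.8% and 42.1% in 3D. Cox7a2l made up 42.9% and 43.4% in 2D and 55.9% and 56.7% in 3D. The order of these genes depends on how reads were divided with Gm6969, a near-identical copy of Cox7a2l. With copies summed into each gene, Cox7a2l led in both cultures, with 62.4% and 63.2% in 2D and 73.8% and 74.9% in 3D, and Cox7a2 had 36.4% and 35.8% in 2D and 25.4% and 24.4% in 3D. Cox7a2l itself (chr17:83501919-83514333) had 208.8 and 200.1 TPM in 2D and 235.6 and 241.0 TPM in 3D, a log2 fold change of 0.22 (SE 0.042, adjusted p = 0.0124, limma). The call was lost without either 3D library (adjusted p of 0.0637 and 0.086, limma). Cox7a1 stayed under 2% throughout.

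The c subunit, which forms the rotating ring of the ATP synthase, is made from 3 genes whose mature proteins are the same. Atp5g1 had 132.5 and 114.2 TPM in 2D and 86.8 and 86.2 TPM in 3D (log2 fold change -0.50, SE 0.080, adjusted p = 0.00746, limma). Atp5g3 was lower by a log2 fold change of -0.31 (SE 0.040, adjusted p = 0.00397, limma). Atp5g2 was not called (0.08, adjusted p = 0.165, limma), and its share of the 3 genes was 41.5% and 42.5% in 2D and 50.1% and 49.2% in 3D. The share of Atp5g1 was 15.9% and 14.5% in 2D and 11.7% and 12.0% in 3D. With near-identical copies summed into each gene, Atp5g1 took 27.6% and 27.1% in 2D and 23.0% and 23.1% in 3D, and Atp5g2 took 36.1% and 36.4% in 2D and 44.0% and 43.6% in 3D. No test was run on shares.

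**Figure D4:**
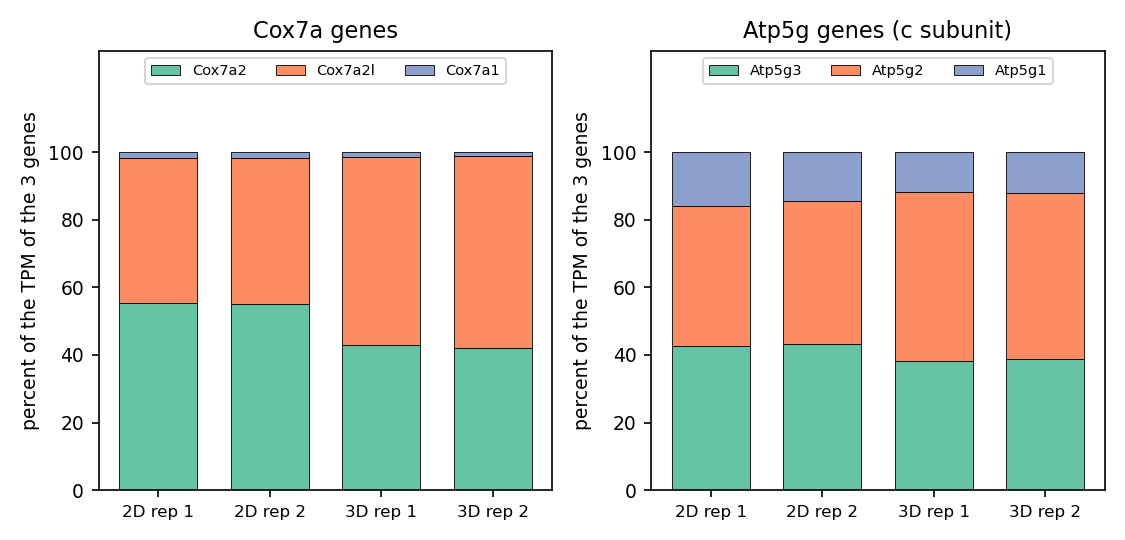
Percent of the summed TPM of 3 genes (vertical axis) taken by each gene in each library, without near-identical copies, for the Cox7a genes (left) and the genes of the c subunit (right). Cox7a2l takes 42.9% and 43.4% in 2D and 55.9% and 56.7% in 3D, and Atp5g2 takes 41.5% and 42.5% in 2D and 50.1% and 49.2% in 3D.

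The tissue-restricted or hypoxic forms of other subunits were scarce. Cox4i2, the form of lung and low oxygen, Cox6b2, known from testis, Cox7b2, and Ndufa4l2, a hypoxia-induced relative of Ndufa4, had a mean under 1 TPM and were not tested, and each was under 0.25% of its pair in every library. Cox6a2, the muscle form, had 0.977 and 1.11 TPM in 2D and 2.19 and 1.64 TPM in 3D, a log2 fold change of 0.51 (adjusted p = 0.0477, limma), and the call was lost without any 1 of the 4 libraries (limma adjusted p from 0.0623 to 0.192). The fifth untested member was a second Atp5o entry, a long locus over Atp5o and its neighbours Cryzl1 and Donson, listed at 0.594 TPM in 2D replicate 1 and at 0 in the others.

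Reads of some members can be shared with near-identical copies elsewhere in the genome. At 95% identity or more over at least 70% of the shorter transcript, 26 members had 51 copies, of which 43 were in the table and only 4 had a mean of at least 10 TPM. Gm10039, a copy of Atp5g1, was listed at 106 to 139 TPM, about as high as Atp5g1. Gm6969, a copy of Cox7a2l, was listed at 247 to 308 TPM, above Cox7a2l. The other 2 were Gm15920 for Ndufa12 and Gm12338 for Cox7c. How the quantification divided reads between gene and copy is uncertain, so the shares of Atp5g1 and Cox7a2l above are given both ways. Summed with its copy, each gene kept its direction and its call, with log2 fold changes of -0.42 for Atp5g1 (adjusted p = 0.00262, limma), 0.24 for Cox7a2l (0.0106), -0.34 for Cox7c (0.00678) and -0.53 for Ndufa12 (0.0175). Ndufa13 overlaps Yjefn3 on the same strand, and Ndufa13 was not called.

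Other genes of mitochondrial function were set beside the subunits. Of all genes tested, 27.1% were called lower and 23.4% higher. Among 11 tested carriers and subunits with names outside the pattern, 5 were lower (45.5%) and 1 was higher (9.09%). Cytochrome c, which carries electrons between complexes III and IV, is encoded by Cycs, with 171.5 and 165.3 TPM in 2D and 122.0 and 121.9 TPM in 3D (log2 fold change -0.46, adjusted p = 0.00152, limma). Usmg5, a small subunit of the ATP synthase, was lower (-0.34), and cytochrome c1, Cyc1, was not called (-0.10). Both subunits of the electron transfer flavoprotein, which delivers electrons from fatty acid oxidation, were called in opposite directions, Etfb at -0.38 and Etfa at 0.44.

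The mitochondrial ribosomal proteins, which serve the translation of the mitochondrially encoded subunits, resembled the members, with 35 of 78 lower (44.9%), 8 higher (10.3%) and a median of -0.18. Mrps23 (-1.10) and Mrpl33 (-0.96) had the lowest called values, and Mrpl2 (0.40) and Mrpl14 (0.34) the highest. The citric acid cycle and pyruvate dehydrogenase had 5 of 18 lower (27.8%) and 2 higher (11.1%), against 27.1% and 23.4% of all genes tested, so the lower share was near that of genes at large. Idh3a (-0.28) and Fh1 (-0.27) had the lowest called values of this list. Suclg2, the GTP-forming subunit of succinyl-CoA ligase, rose from 63.3 and 59.9 TPM in 2D to 111.1 and 107.0 TPM in 3D (log2 fold change 0.81, adjusted p = 0.000689, limma). Assembly factors of complexes II to V had 6 of 34 lower (17.6%) and 3 higher (8.82%), both shares below those of all genes. Pet100 (-0.48) and Ttc19 (-0.43) had the lowest called values, and Coa7 (1.55) and Sco2 (0.61), both known from the assembly of complex IV, the highest. The median of these assembly factors, -0.06, turned to 0.03 without 3D replicate 2, in which Pet117 was listed at 0. Of 8 further complex I assembly factors, 2 were lower (25%), Acad9 (-0.61) among them, and 2 were higher (25%). Of 12 genes of coenzyme Q synthesis, 4 were lower (33.3%) and 2 higher (16.7%).

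Of 19 tested regulators of mitochondrial gene expression, 8 were higher (42.1%) and 3 lower (15.8%), against 23.4% and 27.1% of all genes tested. Ppargc1a, the coactivator PGC-1alpha, known to drive mitochondrial gene expression, had 2.89 and 3.35 TPM in 2D and 9.96 and 9.38 TPM in 3D, a log2 fold change of 1.37 (adjusted p = 0.00102, limma). Epas1, which encodes the hypoxia factor HIF-2alpha, was higher by a log2 fold change of 1.04, and Nrip1, a corepressor of mitochondrial genes, by 1.00, with 13.5 and 13.1 TPM in 2D and 25.9 and 29.2 TPM in 3D (adjusted p = 0.0013, limma). The others called higher were Ppara (0.86), a regulator of fatty acid oxidation, the mitochondrial helicase Twnk (0.76), the mitochondrial transcription factor Tfb2m (0.63), the nuclear factor Yy1 (0.43), and Esrra (0.34), a partner of PGC-1alpha. Activators and a corepressor were thus both among the genes that rose. Mterf1a (-0.40), Gabpa (-0.29) and Tfb1m (-0.26) were lower, and Nrf1 and Tfam were not called. The median over the regulators was 0.03. Of 3 tested uncoupling genes none was called (limma), and 1 was lower at an unadjusted p under 0.05.

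**Figure D5:**
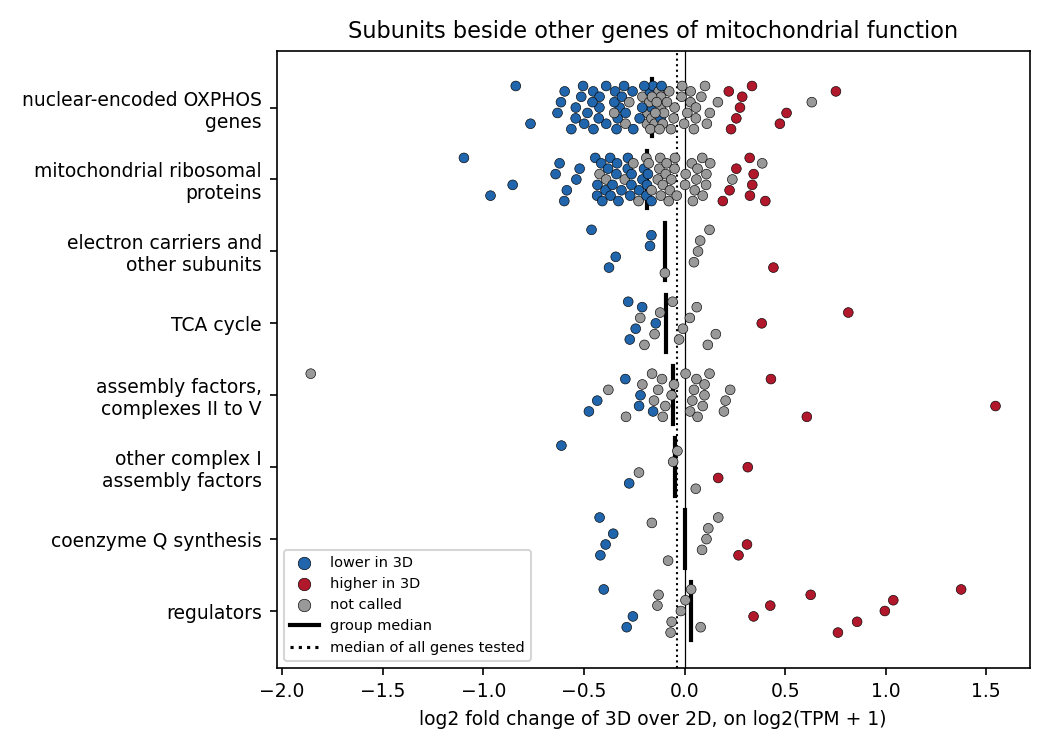
Log2 fold change of 3D over 2D on log2(TPM + 1) (horizontal axis) for the members and for 7 lists of other mitochondrial genes, with blue for lower, red for higher in 3D (limma adjusted p under 0.05) and grey for not called. The medians of the members (-0.16) and of the mitochondrial ribosomal proteins (-0.18) lie left of the dotted median of all genes (-0.04), and the regulators spread to the right, up to Ppargc1a at 1.37.

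The 13 subunits made from mitochondrial DNA had a larger sum in 3D, unlike the nuclear ones. They summed to 50498.0 and 50194.6 TPM in 2D and to 64681.5 and 61714.5 TPM in 3D. Of the 13, 4 were called higher (30.8%) and none lower (limma), against 23.4% and 27.1% of all genes tested. At an unadjusted p under 0.05 the counts were 6 and 1. mt-Co1, the catalytic subunit of complex IV, had 14101.5 and 15272.3 TPM in 2D and 20926.7 and 19658.5 TPM in 3D (log2 fold change 0.47, adjusted p = 0.003, limma). The estimates of some of these genes were erratic. mt-Nd4 was listed at 16.8 TPM in 2D replicate 2, which lowers the sum of that library, and at 3905 to 5145 TPM in the other libraries. mt-Atp6 was near 0 in 3 of 4. Among the 4 called, mt-Co3 and mt-Nd3 were listed far below mt-Co1, so their calls are uncertain too. mt-Co3 had 47.2 and 50.3 TPM in 2D and 149.7 and 93.3 TPM in 3D. mt-Nd3 had 8.26 and 6.01 TPM in 2D and 10.9 and 12.8 TPM in 3D. With the mitochondrial genes and the 20 most abundant genes left out and TPM rescaled, 43 members were called, 42 of them among the 47 above.

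The identity of the cells was checked on marker genes. Of 7 hepatocyte markers 6 had a mean of at least 1 TPM, with sums of 9600 and 9400 TPM in 2D and 5360 and 5430 TPM in 3D that were mostly Krt18 and Krt8. The other expressed hepatocyte markers went the other way from this sum. Albumin stood at 0.819 and 1.20 TPM in 2D and at 12.7 and 10.0 TPM in 3D, and Hnf4a at 56.7 and 57.6 TPM and at 164 and 156 TPM. Ttr had 3.98 and 3.11 TPM in 2D and 88.1 and 80.9 TPM in 3D, and Apoa1 had 5.48 and 4.30 TPM and 11.0 TPM in each 3D library. Serpina1a was at or near 0 in all libraries. Of 4 cholangiocyte markers, 3 were present, with sums of 2240 and 2160 TPM in 2D and 1500 and 1580 TPM in 3D, mainly Krt19. Sox9 went the other way, with 15.2 and 16.5 TPM in 2D and 24.2 and 25.4 TPM in 3D, and Epcam was at or near 0. The 3 endothelial markers summed to 0.555 to 1.19 TPM. The fibroblast and stellate sum was 34.9 and 37.4 TPM in 2D and 19.5 and 18.4 TPM in 3D, nearly all Des, and the macrophage sum was 18.5 to 26.3 TPM, nearly all Cd68, with Adgre1 at or near 0. The part of the state of the cells in the differences of the members was not tested.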

How the data were processed

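Polyadenylated RNA of AML12 cells was sequenced in 2 libraries from 2D and 2 from 3D cultures, prepared with a stranded kit. Reads were trimmed by the authors with cutadapt 1.8.3 and Trimmomatic 0.36, aligned to GRCm38 with HISAT2 2.0.5 and quantified with StringTie 1.3.4 on Ensembl release 93. Each library has its own TPM column in the table deposited by the authors. The authors also deposited a log2 fold change and an unadjusted p-value from DESeq2, which were not used here. TPM carry no depth, so no count test, counting interval or detection limit was computed, and the libraries listed 13891 to 14256 genes at 1 TPM or more.

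Libraries were grouped by the culture given in the labels. Genes with a mean of at least 1 TPM entered a limma 3.58.1 fit (R 4.3.3) of log2(TPM + 1) (trended and robust empirical Bayes, culture as the only factor, two-sided, Benjamini-Hochberg over 14116 genes). The steps were tested on simulated data with far fewer changed genes than were called here and with changes larger than those of the members. That test therefore does not check calls on small changes. Same-numbered libraries did not deviate together (r = -0.0549 over 14116 genes). Copies were found with blastn 2.17.0 against GENCODE release M21 transcripts. Of the 91 members, 82 had the same position there. Tables and figures were made with Python 3.11.15, pandas 2.3.3 and matplotlib 3.10.9.

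Members, companion lists and marker lists were chosen with earlier results of these data known. Named in each complex were the member with the highest mean TPM, up to 3 called members with the highest and up to 3 with the lowest log2 fold change, all genes of isoform groups and untested members. In companion lists up to 2 called genes at either end were named, and any gene of lists under 16. Other genes (Ndufb6, Ndufb7, Ndufb4, Ndufb3, Ndufb11, the further core and accessory subunits, Ndufab1, the Ndufaf genes, Sdha, the other Uqcr, Cox and Atp5 genes, Nrip1, Twnk, Tfb2m, Yy1, Tfb1m, Esrra, Ppara, Nrf1, Tfam and Pet117) were chosen after their values were seen. Alternatives were other pseudocounts, filters, scalings, variance models, a replicate block, a length and GC correction, and leaving out each library. Summing near-identical copies was chosen after seeing the data.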

Additional observations from a re-analysis of the deposited data

How the results depend on the processing

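With a fit in which the replicate number was a block, 5 members were called higher and 29 lower, and all 34 were among the 47 called without it. The labels do not say whether same-numbered libraries were paired. Their deviations had r = -0.0549, but with 2 libraries for each culture this is a single contrast and cannot settle the question. The replicate block called 6248 genes in all. Without the filter on low values, 3 members were called higher and 25 lower, and the medians moved to -0.27 for complex V, -0.0254 for subunits and carriers outside the name pattern and -0.0269 for the uncoupling genes. Quantile normalization gave medians of -0.12 for all members and -0.0887 for complex II, and rescaling without mitochondrial and top genes gave -0.11 for complex II. With the length and GC correction the medians were -0.10 for complex I, -0.0745 for complex III, -0.19 for complex IV and -0.17 for complex V. The cause was not tested. Leaving out each library in turn left 4707 to 5945 genes called in all, 2 to 8 members higher and 23 to 38 lower, with medians from -0.20 to -0.12 for all members, -0.19 to -0.11 for complex I, 0.0612 to 0.165 for the Ndufaf genes, -0.32 to -0.27 for complex IV, -0.28 to -0.20 for complex V, -0.15 to -0.01 for the further complex I assembly factors and -0.0588 to 0.0291 for the assembly factors of complexes II to V, whose sign turned to positive without 3D replicate 2. Each such fit leaves 1 library in a culture, which is assumed to vary like those of the other. Ndufb9, near 0, turned positive under median centring (0.0115), quantile normalization (0.0046), rescaling (0.0246) and without 2D replicate 1 (0.0576) or 3D replicate 1 (0.0127), with a lowest value of -0.0611, and Ndufaf1, at 0.105 without 2D replicate 1, turned negative without 2D replicate 2 (-0.0772). Of 584 values for 39 named members, 496 kept direction and side of the threshold, 77 lost the call, 5 gained one and 6 changed sign. Ndufb2, Ndufb4, Ndufb6, Ndufb7, Ndufa3, Ndufa4, Ndufa6, Ndufs8, Ndufaf2, Ndufaf6, Uqcrb, Uqcrc1, Cox5b, Cox6b1, Cox7a2, Cox7b, Cox7c, Atp5b, Atp5d, Atp5g1, Atp5g3 and Atp5o, 22 of the 47 called, kept their direction and call under every alternative run. With 2 libraries for each culture and TPM without depth, differences of low members are the least certain.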
